A study of Chlamydomonas reinhardtii with 12 samples.

Results

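The 10 chlorophyll biosynthesis genes described here are HEMA1, GSA1, CHLH1, CHLD1, CHLI1, GUN4, CHLM1, CRD1, CTH1 and POR1 of the unicellular green alga Chlamydomonas reinhardtii. They were chosen by gene identifier for their known place in the pathway, not by a measured value, and they are 10 of the 17693 genes of the deposited expression table. Poly(A) RNA was sequenced in 12 libraries, 3 biological replicates of each of 4 groups, and expression was given as FPKM (fragments mapped to a gene, scaled by transcript length and library size). The groups were vip1-1 in high light, vip1-1 in control light, wild type (WT) in high light and WT in control light. All libraries came from strain CC-1690 grown in liquid TAP medium, which contains acetate, at 25 °C. The vip1-1 mutant is deficient in inositol pyrophosphates, which are signalling molecules with a diphosphate group on an inositol ring. High light was 1500 and control light 50 µmol photons m-2 s-1, and the duration of the high light is not given in the sources used here. The study asked what part inositol pyrophosphates have in the response to high light. Each strain is represented by a single line, and the transcript of the gene disrupted in vip1-1 was not analysed here. In a bulk culture, less of a transcript in every cell and fewer cells that express it cannot be told apart.

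Chlorophyll is made in the chloroplast from glutamate, mostly by enzymes that are encoded in the nucleus. Glutamyl-tRNA reductase and glutamate semialdehyde aminotransferase make aminolevulinic acid, the precursor of all tetrapyrroles, and later steps build protoporphyrin IX. Magnesium chelatase then inserts magnesium, which commits the molecule to chlorophyll and away from haem. Free intermediates of the pathway are photosensitisers that form singlet oxygen in light, and plants and algae control the pathway tightly at its first step and at the chelatase.

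The files give no read counts, so sequencing depth is unknown and only the spread of 3 libraries shows how precise a group mean is. The FPKM total of a library lay between 681002 and 716974 in vip1-1 high light and between 762497 and 767459 in vip1-1 control. In WT it lay between 651369 and 674168 in high light and between 741086 and 754563 in control. Totals were thus lower in high light than in control light without overlap. High light minus control light had a median over all 12575 tested genes of 0.38 in vip1-1 and 0.39 in WT on the log2(FPKM + 1) scale, and vip1-1 minus WT had one of -0.28 in high light and -0.29 in control light. A member at zero therefore stood below the middle of all genes in the light comparisons and above it in the strain comparisons. The split of calls moved with scaling. When every library was centred on its median gene, the share of called genes that were higher was 39.2% in place of 90.2% for light in vip1-1, 46.5% in place of 76.5% for light in WT, 54.3% in place of 26.0% for the strains in high light and 59.0% in place of 19.7% for the strains in control light. For the interaction of strain and light, scaling each library without its 1000 most abundant genes gave 58.2% in place of 43.8%. In WT high light, replicate 2 had Pearson's r across tested genes of 0.951 and 0.931 with replicates 1 and 3, which had 0.972 with each other. This library held the highest value of its group for 9 of the 10 members, against 23.5% of all tested genes. WT control replicate 1 held the lowest value of its group for 8 of the 10, against 39.5% of all tested genes. Calls of members that change without either are given both ways. Some estimates also moved where the call held. Without WT high light replicate 2, vip1-1 minus WT in high light was 3.25 in place of 2.67 for GSA1. For CHLH1 it was 2.91 in place of 2.48, and for HEMA1 0.58 in place of 0.59. Without WT control replicate 1, high light minus control light in WT was -2.10 in place of -1.66 for GUN4.

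Members of the pathway were expressed at very different levels. FPKM is scaled by length, so levels of different genes are set side by side here. The step that made some values in 5 members is not stated, so the order is only that of the given values. CTH1 had the highest mean in each of the 4 groups and GUN4 the lowest, with CHLM1 next above GUN4. In vip1-1 high light the order was CTH1, CHLI1, POR1, CHLH1, GSA1, HEMA1, CHLD1, CRD1, CHLM1 and GUN4. Neighbours from CHLI1 down to HEMA1 overlapped in their libraries, as did CHLD1 and CRD1, while CTH1, CHLM1 and GUN4 each stood apart from the next gene. In vip1-1 control light the order was CTH1, CHLI1, GSA1, POR1, CHLH1, HEMA1, CRD1, CHLD1, CHLM1 and GUN4. Only GSA1 with POR1, POR1 with CHLH1, and CRD1 with CHLD1 overlapped there as neighbours. In WT high light the order was CTH1, POR1, HEMA1, CHLI1, CRD1, CHLH1, GSA1, CHLD1, CHLM1 and GUN4, and every neighbouring pair from CTH1 to CHLD1 overlapped. In WT control light the order was CTH1, CHLI1, HEMA1, CHLH1, GSA1, POR1, CHLD1, CRD1, CHLM1 and GUN4, and only CHLH1 with GSA1 and GSA1 with POR1 overlapped. All 10 members reached 1 FPKM in 3 or more libraries and were tested.

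**Figure D1:**
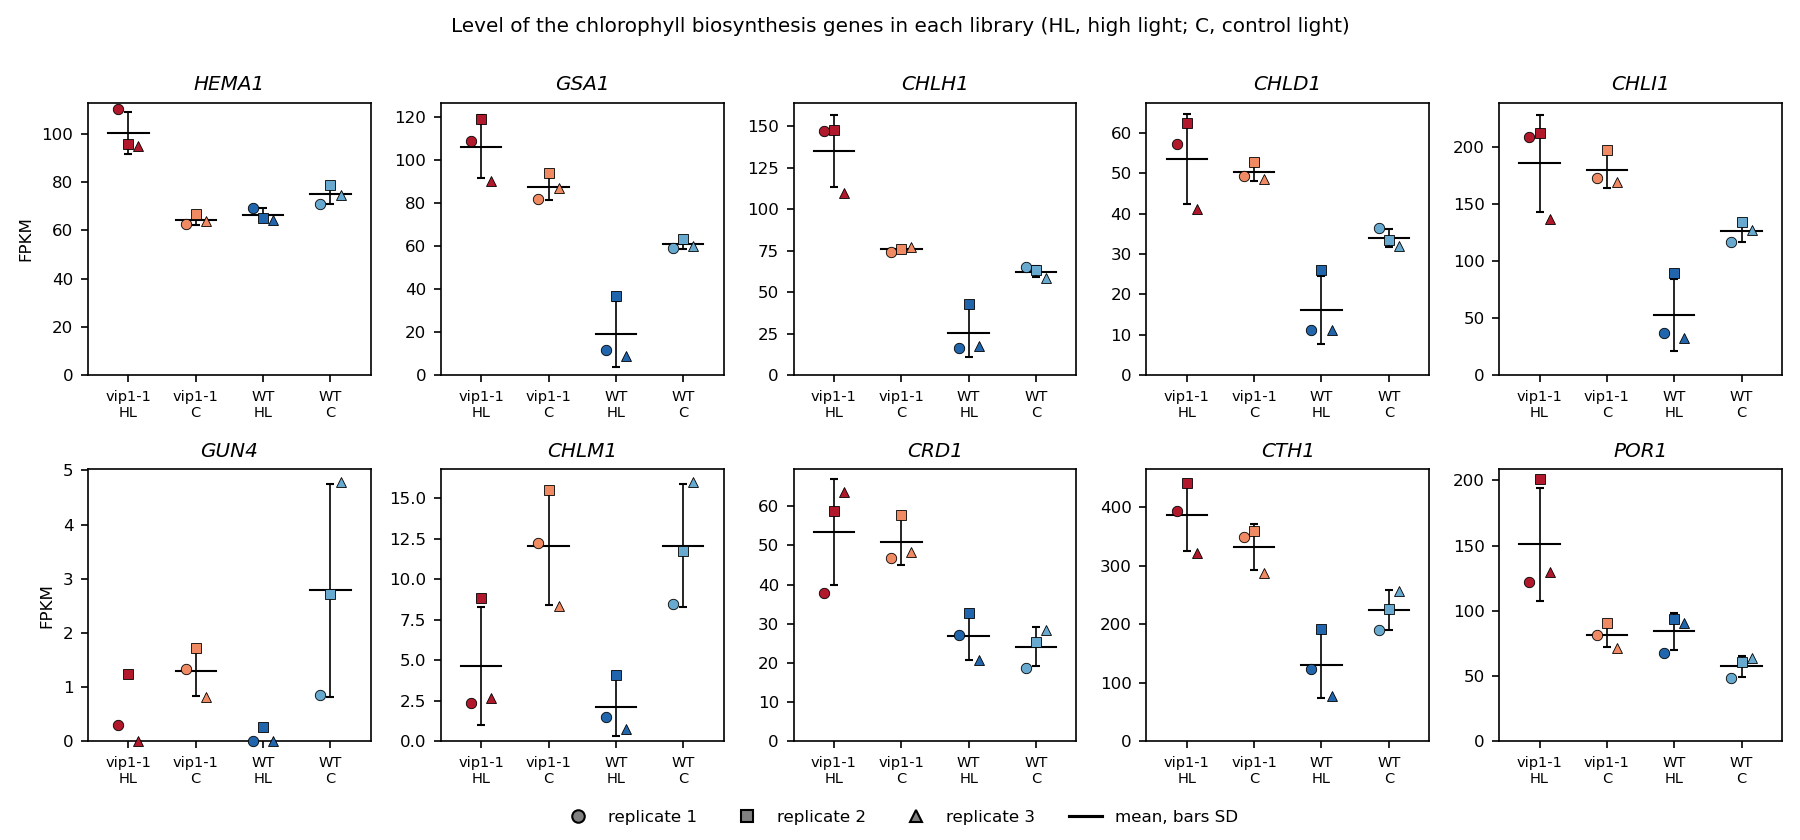
FPKM of each chlorophyll biosynthesis gene (vertical axis, linear from 0) in the 4 groups on the horizontal axis, with 1 point for each replicate, the mean as a horizontal line and the SD as a bar; no mean is drawn for a group with a value listed at 0. The WT high light libraries of GSA1, CHLH1, CHLD1, CHLI1 and CTH1 sit below the vip1-1 high light libraries, and replicate 2 (square) is the highest of the WT high light points in every panel but HEMA1.

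Aminolevulinic acid synthesis was represented by HEMA1 and GSA1. HEMA1 (Cre07.g342150_4532.v6.1) encodes glutamyl-tRNA reductase, the enzyme at which tetrapyrrole synthesis is mainly controlled. It had 111, 95.7 and 95.2 FPKM in replicates 1, 2 and 3 of vip1-1 high light, 62.8, 66.9 and 63.7 in vip1-1 control, 69.5, 65.3 and 64.3 in WT high light and 71.1, 78.8 and 74.8 in WT control. The vip1-1 high light libraries were above all 9 others, and no other group exceeded 78.8 FPKM. GSA1 (Cre03.g158000_4532.v6.1) encodes glutamate semialdehyde aminotransferase, which completes aminolevulinic acid. It had 109, 119 and 90.2 FPKM in vip1-1 high light, 81.7, 93.8 and 86.8 in vip1-1 control, 11.4, 36.5 and 8.9997 in WT high light and 59.1, 63.1 and 60.0 in WT control. The WT high light libraries lay below all others, with replicate 2 about midway to the WT controls, and the vip1-1 high light libraries overlapped the vip1-1 controls.

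Magnesium chelatase was represented by its 3 subunits and by GUN4. CHLH1 (Cre07.g325500_4532.v6.1) encodes the large subunit that binds protoporphyrin. It had 147, 148 and 109.8 FPKM in vip1-1 high light, 74.3, 76.1 and 77.2 in vip1-1 control, 16.6, 42.7 and 17.3 in WT high light and 65.1, 63.1 and 58.8 in WT control. No library of one group overlapped another group, and the order was vip1-1 high light, vip1-1 control, WT control and WT high light. CHLD1 (Cre05.g242000_4532.v6.1), an AAA+ family subunit of the motor complex, had 57.2, 62.3 and 41.1 FPKM in vip1-1 high light, 49.4, 52.9 and 48.6 in vip1-1 control, 11.1, 25.9 and 11.3 in WT high light and 36.4, 33.5 and 32.0 in WT control. CHLI1 (Cre06.g306300_4532.v6.1), the ATP-hydrolysing subunit of the same complex, had 209, 212 and 137 FPKM in vip1-1 high light, 173, 198 and 169.5 in vip1-1 control, 36.6, 89.5 and 32.2 in WT high light and 117, 135 and 127 in WT control. In both motor subunits the vip1-1 high light and vip1-1 control libraries overlapped, both lay above the WT controls, and the WT high light libraries lay below everything else. GUN4 (Cre05.g246800_4532.v6.1) encodes a porphyrin-binding protein that stimulates the chelatase, and its mean FPKM was the lowest of the members. It had 0.299, 1.24 and 0 FPKM in vip1-1 high light, 1.34, 1.72 and 0.823 in vip1-1 control, 0, 0.261 and 0 in WT high light and 0.848, 2.73 and 4.78 in WT control. Replicate 3 of vip1-1 high light and replicates 1 and 3 of WT high light were thus listed at 0, the only such values among the 120 member values, and the WT controls spread over a wide range.

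The later steps were represented by CHLM1, CRD1, CTH1 and POR1. CHLM1 (Cre12.g498550_4532.v6.1) encodes the methyltransferase that follows the chelatase. It had 2.39, 8.83 and 2.66 FPKM in vip1-1 high light, 12.3, 15.5 and 8.34 in vip1-1 control, 1.49, 4.11 and 0.764 in WT high light and 8.48, 11.7 and 16.03 in WT control. It was lower in high light in both strains, apart from vip1-1 high light replicate 2, which overlapped the vip1-1 controls. CRD1 and CTH1 encode alternative forms of the iron-containing subunit of the cyclase that closes the fifth ring of chlorophyll. In Chlamydomonas CRD1 is known to accumulate when copper or oxygen is short, and CTH1 when both are plentiful. CRD1 (Cre07.g346050_4532.v6.1) had 38.0, 58.7 and 63.6 FPKM in vip1-1 high light, 46.7, 57.7 and 48.4 in vip1-1 control, 27.1, 32.7 and 20.7 in WT high light and 18.8, 25.2 and 28.5 in WT control. All 6 vip1-1 libraries were above all 6 WT libraries, and the light levels overlapped within each strain. CTH1 (Cre12.g510050_4532.v6.1) had 394, 443 and 322 FPKM in vip1-1 high light, 349, 359.7 and 288 in vip1-1 control, 124, 192 and 78.3 in WT high light and 190.0, 227 and 257 in WT control. It too was above WT in all vip1-1 libraries, and WT high light replicate 2 overlapped the WT controls. POR1 (Cre01.g015350_4532.v6.1) encodes protochlorophyllide oxidoreductase, the enzyme that needs light to act. It had 122, 201 and 130.0 FPKM in vip1-1 high light, 81.5, 90.7 and 71.9 in vip1-1 control, 67.9, 93.9 and 90.9 in WT high light and 48.5, 60.5 and 63.7 in WT control. High light was above control light without overlap in both strains.

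In high light most of the 10 members were expressed more strongly in vip1-1 than in WT. The genes for aminolevulinic acid synthesis, the 3 chelatase subunits, both cyclase forms and POR1 were higher in vip1-1, 8 of 10 members in all, and none was lower, under each of the scalings tried. Among these 8, the largest differences were in GSA1 and CHLH1, whose means were 5.58 and 5.29 times those of WT. Among all tested genes 46.4% were called in this comparison, 12.1% higher and 34.4% lower (limma, adjusted p under 0.05). The median of the 10 members was 1.29 on the log2(FPKM + 1) scale, against -0.28 for all tested genes.

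GSA1 averaged 106 ± 14.6 FPKM in vip1-1 high light and 19.0 ± 15.3 in WT high light (SD, n = 3 each), a log2 difference of 2.67 (adjusted p = 3.20e-04 by limma, SE 0.38). CHLH1 averaged 135 ± 21.8 FPKM in vip1-1 and 25.5 ± 14.8 in WT, with a log2 difference of 2.48 (adjusted p = 1.02e-04 by limma, SE 0.29). These encode an enzyme of aminolevulinic acid synthesis and the porphyrin-binding subunit of the chelatase. The motor subunits followed, CHLI1 at 186 ± 42.6 FPKM in vip1-1 and 52.8 ± 31.9 in WT with a log2 difference of 1.92 (adjusted p = 8.26e-04 by limma, SE 0.32). CHLD1 had a log2 difference of 1.76 (adjusted p = 5.54e-04 by limma, SE 0.28). CTH1 averaged 386 ± 60.7 FPKM in vip1-1 and 131 ± 57.0 in WT, with a log2 difference of 1.63 (adjusted p = 8.14e-04 by limma, SE 0.27). These 5 genes lay at or above the 98.5th percentile of all log2 differences in this comparison. Smaller differences were measured for CRD1, 0.96 (adjusted p = 0.00657 by limma, SE 0.23), for POR1, 0.81 (adjusted p = 0.00866 by limma, SE 0.21), and for HEMA1, 0.59 (adjusted p = 9.42e-04 by limma, SE 0.10). In the 8 genes every vip1-1 high light library was above every WT high light library, which held for 12.8% of all tested genes.

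GUN4 and CHLM1 did not pass the threshold in high light. The difference of GUN4 was 0.40 with a 95% interval of -0.47 to 1.27, and that of CHLM1 was 0.81 with an interval of -0.23 to 1.86, so neither interval excludes a large difference. Without WT high light replicate 2, CHLM1 was past the threshold at 1.24 (limma adjusted p = 0.0453) and 9 members were higher, against 12.3% of all tested genes in that fit. POR1 was not past it when only the high light libraries were fitted (limma adjusted p = 0.0535), with the same difference.

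**Figure D2:**
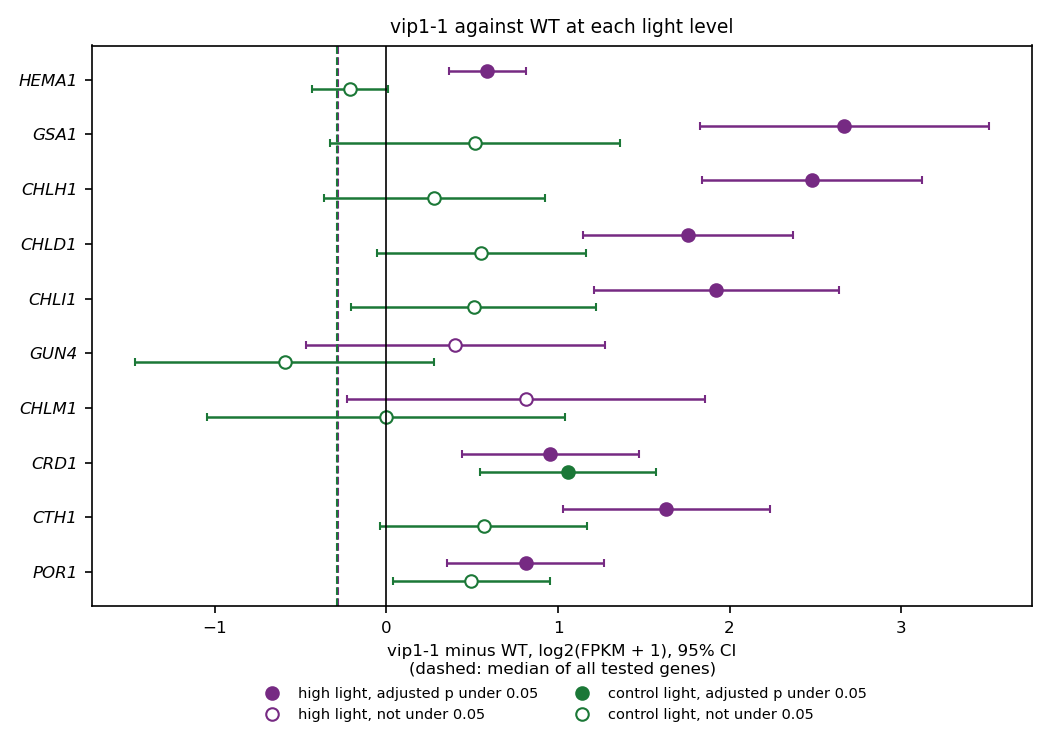
Difference of vip1-1 minus WT for each gene on the log2(FPKM + 1) scale (horizontal axis) in high light (purple) and control light (green), with 95% intervals from limma; filled points have an adjusted p under 0.05, and the dashed lines mark the median of all tested genes. In high light 8 of 10 points are filled and all lie above zero, and in control light only CRD1 is filled.

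In control light CRD1 was the only member called, and it was higher in vip1-1, at 51.0 ± 5.91 FPKM against 24.2 ± 4.93 in WT (SD, n = 3 each), a log2 difference of 1.06 (adjusted p = 0.00661 by limma, SE 0.23). Of all tested genes 32.4% were called, 6.39% higher and 26.0% lower. CRD1 passed the threshold in each of the 25 other settings tried. Another 6 members, GSA1, CHLH1, CHLD1, CHLI1, CTH1 and POR1, also had all vip1-1 control libraries above all WT control libraries, which together with CRD1 made 7 of 10, against 14.9% of all tested genes. Their log2 differences were between 0.28 (CHLH1) and 0.57 (CTH1), with limma adjusted p from 0.0906 (POR1) to 0.489 (CHLH1), so none passed the threshold.

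HEMA1 went the other way, with the vip1-1 control libraries below those of WT without overlap, as in 48.1% of all tested genes, and a difference of -0.21 (limma adjusted p = 0.130). GUN4 and CHLM1 overlapped between the strains, with differences of -0.59 (GUN4) and -0.00166 (CHLM1). After median centring HEMA1 was at 0.13 and CHLM1 at 0.34, neither called. The fit used one estimate of the spread over all 4 groups. When only the 6 control libraries were fitted, 7 members were called higher, against 11.9% of all tested genes in that fit, and HEMA1 lower (limma adjusted p = 0.0351), against 42.7% of all tested genes. Without WT high light replicate 2, 5 members were called higher, CRD1 with GSA1, CHLD1, CHLI1 and CTH1, against 8.06% of all tested genes in that fit. Without WT control replicate 1, GUN4 was called lower at -1.04 (limma adjusted p = 0.0491), against 20.1% of all tested genes in that fit.

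High light lowered most of the 10 members in WT. GSA1, the 3 chelatase subunits, GUN4, CHLM1 and CTH1 fell, 7 of 10 members, and POR1 was called higher. HEMA1 and CRD1 did not pass the threshold. Among all tested genes 58.4% were called, 13.7% lower and 44.7% higher (limma, adjusted p under 0.05), and the members' median was -1.26 on the log2(FPKM + 1) scale, against 0.39 for all tested genes. Every WT high light library was below every WT control library in 7 members, HEMA1 among them and CTH1 not, against 16.8% of all tested genes. The opposite order without overlap held for POR1, against 49.8% of all tested genes.

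CHLM1 averaged 2.12 ± 1.76 FPKM in WT high light and 12.1 ± 3.78 in WT control (SD, n = 3 each), a log2 change of -2.17 (adjusted p = 0.00266 by limma, SE 0.47). GSA1 averaged 19.0 ± 15.3 FPKM in high light and 60.7 ± 2.09 in control, a change of -1.88 (adjusted p = 0.00179 by limma, SE 0.38). GUN4 had a fitted change of -1.66 (adjusted p = 0.00446 by limma, SE 0.39), which depends on the pseudocount since 2 of its high light values were listed at 0, and was -3.94 with a pseudocount of 0.1 and -6.22 with one of 0.01, past the threshold in both. All 3 chelatase subunits fell. CHLI1 averaged 52.8 ± 31.9 FPKM in high light and 126 ± 9.03 in control and changed by -1.39 (adjusted p = 0.00393 by limma, SE 0.32). CHLH1 averaged 25.5 ± 14.8 FPKM in high light and 62.3 ± 3.23 in control and changed by -1.39 (adjusted p = 0.00216 by limma, SE 0.29). CHLD1 averaged 16.1 ± 8.50 FPKM in high light and 34.0 ± 2.22 in control and changed by -1.14 (adjusted p = 0.00498 by limma, SE 0.28).

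CTH1 changed by -0.85 (adjusted p = 0.0202 by limma, SE 0.27). This call was lost without WT control replicate 2 (limma adjusted p = 0.0520), without WT control replicate 3 (0.0730) and without WT high light replicate 3 (0.0646), and with only the WT libraries in the fit (0.0584). POR1 averaged 84.2 ± 14.2 FPKM in high light and 57.6 ± 8.03 in control, a change of 0.54 (adjusted p = 0.0453 by limma, SE 0.21). That is 0.14 above the median gene, and the call was lost under median centring (0.11, limma adjusted p = 0.681) and in 8 of the 12 fits that left out a library, those without a WT control library, WT high light replicate 2 or 3, or a vip1-1 control library, with adjusted p from 0.0541 to 0.1498. HEMA1 had a difference of -0.17 (95% interval -0.39 to 0.05, limma adjusted p = 0.165), and it was called lower after median centring (-0.60, limma adjusted p = 0.00678). CRD1 had one of 0.14 (95% interval -0.37 to 0.66), and -0.28 after median centring, not called in either.

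In vip1-1, high light came with more transcript of HEMA1, CHLH1 and POR1 and less of CHLM1, and the other 6 members did not pass the threshold. Among all tested genes 41.5% were called, 37.4% higher and 4.09% lower, so a count of 3 higher members of 10 is near the share of all genes. The members' median was 0.14 on the log2(FPKM + 1) scale, against 0.38 for all tested genes.

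POR1 averaged 151 ± 43.5 FPKM in vip1-1 high light and 81.4 ± 9.44 in vip1-1 control (SD, n = 3 each), a log2 change of 0.85 (adjusted p = 0.00993 by limma, SE 0.21). CHLH1 averaged 135 ± 21.8 FPKM in high light and 75.8 ± 1.48 in control, a change of 0.81 (adjusted p = 0.0453 by limma, SE 0.29). HEMA1 averaged 100.5 ± 8.72 FPKM in high light and 64.5 ± 2.16 in control, a change of 0.63 (adjusted p = 0.00179 by limma, SE 0.10). In these 3 genes every high light library was above every control library, as in 49.1% of all tested genes, and no member had the opposite order without overlap, which 5.77% of all tested genes had. Relative to the median gene their changes were 0.48 (POR1), 0.43 (CHLH1) and 0.25 (HEMA1). None of the 3 was called after median centring or after scaling without the 1000 most abundant genes, where the limma adjusted p was 0.176 and 0.137 for POR1, 0.471 and 0.407 for CHLH1, and 0.362 and 0.254 for HEMA1. The CHLH1 call was also lost in 9 of the 12 fits that left out a library, every one but those without a WT high light library, with adjusted p from 0.0517 to 0.108.

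CHLM1 averaged 4.63 ± 3.64 FPKM in vip1-1 high light and 12.05 ± 3.61 in vip1-1 control, a change of -1.36 (adjusted p = 0.0404 by limma, SE 0.47). Its groups overlapped through high light replicate 2, and the call was lost in 6 fits that left out a library (WT control replicate 2, WT high light replicate 1, vip1-1 control replicates 1 and 2, or vip1-1 high light replicates 1 and 3), with limma adjusted p from 0.0529 to 0.132. It was also lost with a pseudocount of 0.1 or 0.01, no filter, rescaling to TPM, array weights or only the vip1-1 libraries in the fit, so that 13 of the 25 alternatives kept it. GSA1, the chelatase motor subunits, the cyclase forms and GUN4 were not called. CHLI1 had a difference of 0.02 (95% interval -0.69 to 0.74), CHLD1 one of 0.07 (-0.54 to 0.68) and GSA1 one of 0.27 (-0.58 to 1.11). CTH1 had 0.21 (-0.39 to 0.81) and CRD1 0.04 (-0.47 to 0.55). GUN4 had -0.67 (-1.54 to 0.21). After median centring the estimates of GSA1, CHLD1, CHLI1, CRD1 and CTH1 in vip1-1 were below zero, between -0.40 (CHLI1) and -0.16 (GSA1), and not called.

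**Figure D3:**
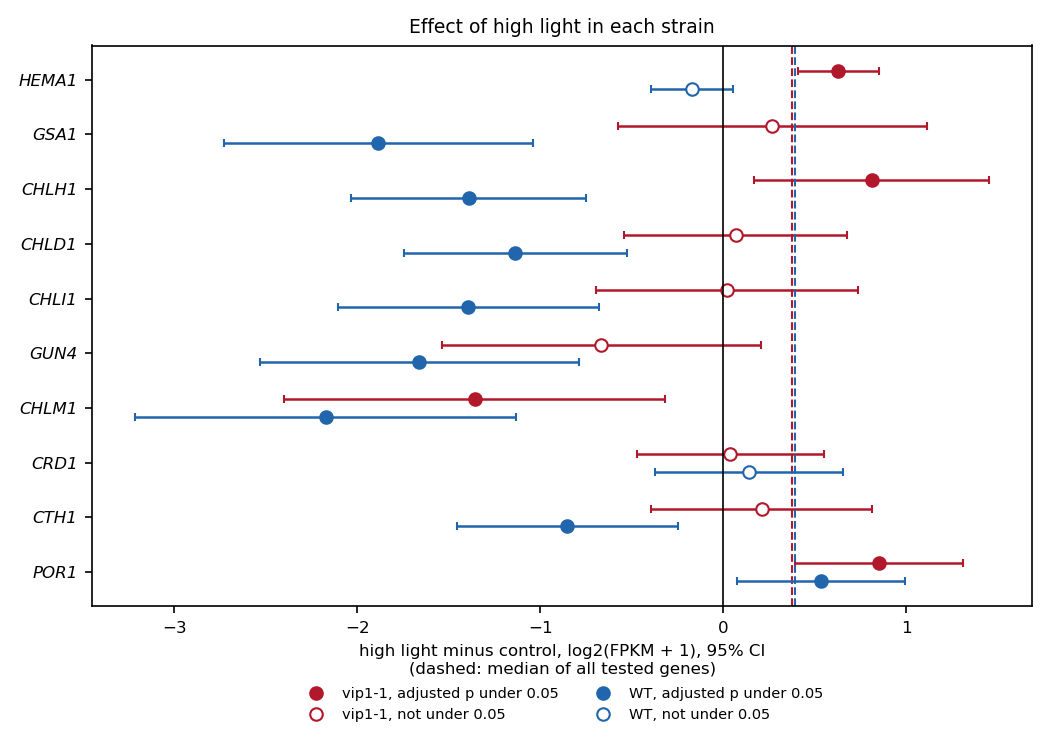
Change of each gene in high light minus control on the log2(FPKM + 1) scale (horizontal axis) in vip1-1 (red) and WT (blue), with 95% intervals from limma; filled points have an adjusted p under 0.05, and the dashed lines mark the median of all tested genes. The filled WT points of 7 genes lie between -2.17 and -0.85 and that of POR1 at 0.54, and the filled vip1-1 points of HEMA1, CHLH1 and POR1 lie above zero and that of CHLM1 below.

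Whether the light response itself differed between the strains was tested by the interaction, the change in vip1-1 minus the change in WT. It was positive and past the threshold for HEMA1, GSA1 and CHLH1. Of all tested genes 8.71% were past it, 3.82% with a positive and 4.89% with a negative interaction (limma, adjusted p under 0.05). The median of the members was 1.03 on the log2(FPKM + 1) scale and that of all tested genes 0.00. The 4 groups of the interaction also make up the other comparisons, so these values are not separate evidence.

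CHLH1 showed 2.20 (adjusted p = 0.0115 by limma, SE 0.41), GSA1 2.15 (adjusted p = 0.0349 by limma, SE 0.54) and HEMA1 0.80 (adjusted p = 0.00968 by limma, SE 0.14). The interactions of CHLH1 and HEMA1 were past the threshold in all alternative settings, with limma adjusted p of at most 0.0355 and 0.0387. That of GSA1 was lost after median centring (limma adjusted p = 0.0548) and in each fit that left out a library other than WT high light replicate 2 and vip1-1 high light replicate 3, with adjusted p from 0.0514 to 0.0862 and estimates from 1.78 to 2.20. CHLH1 was called lower in WT and higher in vip1-1, a combination found in 66 of the tested genes, or 0.525%, and in no other member. Its call in vip1-1 is the one lost under centring and in most fits without a library, as given above.

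The remaining chelatase subunits and CTH1 had interactions of 1.41 (CHLI1, limma adjusted p = 0.0819), 1.21 (CHLD1, 0.0821) and 1.06 (CTH1, 0.116). Without WT high light replicate 2 these were 1.87 (limma adjusted p = 0.00222), 1.59 (0.00245) and 1.38 (0.0143), so that 6 members were past the threshold, all positive, while all tested genes with a positive interaction past it came to 5.85% in that fit. GUN4, CHLM1 and POR1 had 1.00 (95% interval -0.24 to 2.23), 0.82 (-0.66 to 2.29) and 0.32 (-0.33 to 0.96). CRD1 had -0.10 (-0.83 to 0.62), from strain differences of 0.96 in high light and 1.06 in control light.

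Ratios between members within a library do not depend on how libraries are scaled. The FPKM ratio of CHLH1 to CHLD1 was 2.58, 2.37 and 2.67 in vip1-1 high light, 1.503, 1.44 and 1.59 in vip1-1 control, 1.49, 1.65 and 1.54 in WT high light and 1.79, 1.89 and 1.83 in WT control. The vip1-1 high light libraries were above all others, and WT high light was below WT control. The ratio of CHLI1 to CHLD1 was 3.66, 3.403 and 3.33 in vip1-1 high light, 3.50, 3.74 and 3.49 in vip1-1 control, 3.29, 3.45 and 2.86 in WT high light and 3.20, 4.02 and 3.97 in WT control, with WT control overlapping every other group. These ratios were chosen after the levels had been seen and were not tested.

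The balance of the cyclase forms was compared as the ratio of CRD1 to CTH1. The FPKM ratio of CRD1 to CTH1 was 0.0964, 0.133 and 0.198 in vip1-1 high light, 0.134, 0.160 and 0.168 in vip1-1 control, 0.219, 0.171 and 0.264 in WT high light and 0.0989, 0.111 and 0.111 in WT control. CTH1 exceeded CRD1 in all 12 libraries. On the log2 scale with a pseudocount of 1, the ratio in WT was -2.18 ± 0.32 in high light and -3.17 ± 0.08 in control (SD, n = 3 each), a difference of 1.00 without overlap (exact two-sided permutation p = 0.1, adjusted over 4 comparisons 0.2). The smallest p that 3 libraries against 3 can give is 0.1, so no comparison of the ratio could pass the threshold. In control light vip1-1 was above WT by 0.49, also without overlap (exact p = 0.1, adjusted 0.2). In high light the difference of vip1-1 minus WT was -0.67 with overlap (exact p = 0.2, adjusted 0.267), and within vip1-1 that of high light minus control was -0.17 (exact p = 0.6, adjusted 0.6).

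**Figure D4:**
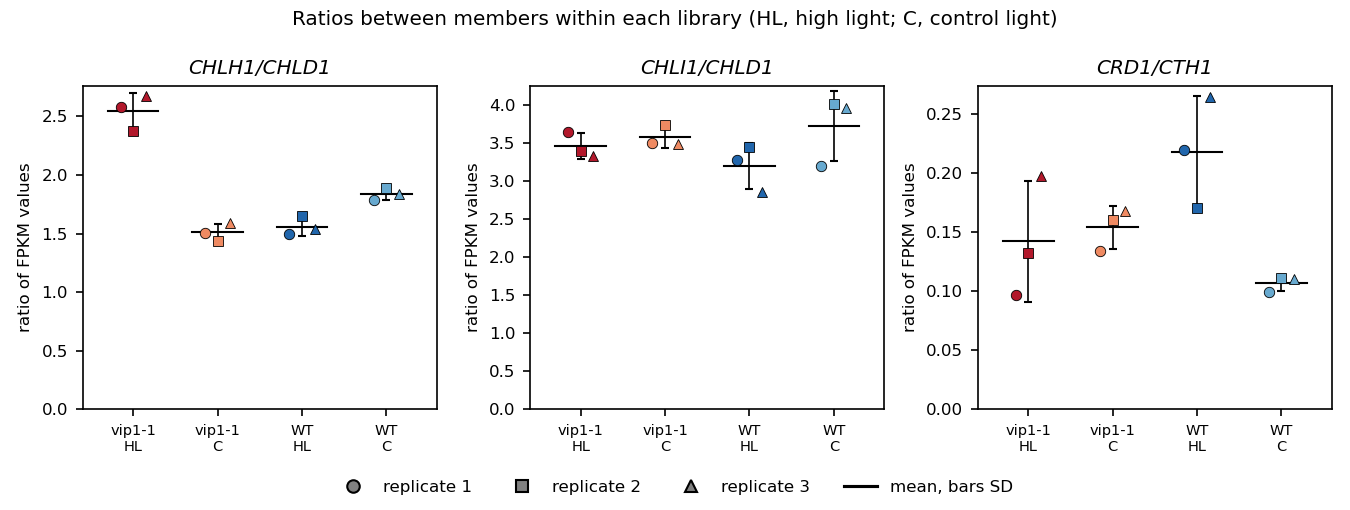
Ratio of FPKM values (vertical axis, linear from 0) of CHLH1 to CHLD1, CHLI1 to CHLD1 and CRD1 to CTH1 in each library of the 4 groups, with the mean as a line and the SD as a bar. The vip1-1 high light libraries are at 2.37 to 2.67 for CHLH1 to CHLD1 and all other libraries at or below 1.89, while for CRD1 to CTH1 the WT high light libraries are above the WT controls.

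The genes whose profile was most like that of a member were found by the root mean square difference of log2(FPKM + 1) over the 12 libraries, after each profile had been centred on its mean. The tested gene nearest to CHLH1 was Cre16.g663900_4532.v6.1, at 0.18. It had 179.6, 184 and 156 FPKM in vip1-1 high light, 105, 114 and 105 in vip1-1 control, 17.6, 59.5 and 19.9 in WT high light and 69.8, 65.6 and 65.8 in WT control, with the same raised replicate 2 in WT high light. CHLD1 and CHLI1 came next, both at 0.31, then Cre16.g674300_4532.v6.1 and Cre02.g084350_4532.v6.1, also at 0.31, and GSA1 at 0.32. CTH1 ranked 15th, while HEMA1, POR1 and CRD1 ranked between 590 and 1212 and GUN4 and CHLM1 stood at 3326 and 3551. The member nearest to CTH1 was CHLD1, at 0.23 and rank 11, behind Cre17.g720183_4532.v6.1 (0.15), Cre05.g243050_4532.v6.1 (0.15) and Cre12.g548950_4532.v6.1 (0.16). For CRD1 no member ranked higher than POR1, at 0.44 and rank 421, and the nearest genes were Cre02.g091050_4532.v6.1 (0.26), Cre12.g549852_4532.v6.1 (0.27) and Cre09.g405400_4532.v6.1 (0.27). The measure is a description of these 12 libraries. Whether the genes listed here by identifier alone belong to the pathway was not examined.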

How the data were processed

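The authors deposited 1 table of FPKM values by gene and library, per the file headers. HISAT2 and StringTie are named in the submitters' processing notes. Their versions and settings, the genome build and the read depth are not given in the sources used here. In 5 members some values have more than 6 decimals, as in 35.1% of all genes, and the step that made these is not stated. Low values (up to 0.15 FPKM) were searched for steps of whole reads. The most common ratio held 1.09% to 3.09% of genes in the 66 pairs of libraries, so reads could not be recovered. Genes that reached 1 FPKM in 3 or more libraries were tested on log2(FPKM + 1), which understates the change of low genes, with limma 3.58.1 in R 4.3.3 (4 group means, variance trend, all 12 libraries) and Benjamini-Hochberg adjustment over all 12575 tested genes at 0.05, two-sided. Exact permutation tests used scipy 1.17.1 and figures matplotlib 3.10.9. Members are always named, whatever their values. Further pathway genes were to be named only where the reference annotation gives their symbols. It gives 0, so they were not picked out from the other tested genes. The members, lists and tests were chosen with earlier results of these data known. The replicate numbers of different groups share no stated culture or day, and are not treated as pairs. Library weights were estimated gene by gene, since the default algorithm did not converge. The alternatives changed the pseudocount, the filter, the scaling, the variance model or the libraries fitted, or added the replicate number as a block.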

Additional observations from a re-analysis of the deposited data

Results flagged for a closer look

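The effect of high light differed between vip1-1 and WT in 3 of the 10 genes by the interaction term of limma, all positive, against 8.71% of all tested genes called and 3.82% called positive. With 1 library left out the count of members ran from 2 to 6, against 4.10% to 15.4% of all tested genes. CHLH1 had an interaction of 2.20 on the log2(FPKM + 1) scale (limma adjusted p = 0.0115), with a change of 0.81 in vip1-1 and -1.39 in WT. GSA1 had one of 2.15 (limma adjusted p = 0.0349), with 0.27 in vip1-1 and -1.88 in WT, and this call was lost in 10 of the 12 fits that left out a library, with limma adjusted p from 0.0514 to 0.0862, and after median centring (limma adjusted p = 0.0548). HEMA1 had one of 0.80 (limma adjusted p = 0.00968), with 0.63 in vip1-1 and -0.17 in WT. In CHLH1 and HEMA1 every vip1-1 high light library was above every vip1-1 control library and every WT high light library was below every WT control library, as in 1.41% of all tested genes. Both were flagged by a positive interaction, which favours this order. The call of CHLH1 in vip1-1 was kept in 12 of the 25 alternatives, and neither gene was called there after median centring. In WT the change of HEMA1 was not called (limma adjusted p = 0.165).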

How the results depend on the processing

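Over all alternatives, 1235 values of members were recomputed, of which 1100 kept their direction and side of the threshold. Of the rest, 58 lost and 38 gained a call, 39 uncalled ones changed sign, and 0 called ones reversed. Leaving out a library outside both groups compared cannot move the estimate, nor can changing the variance model, so these could not reverse. Requiring a mean FPKM of at least 5 left fewer genes, and calls over all genes numbered 3071 in place of 5223 for light in vip1-1, 4173 in place of 7346 for light in WT, 3325 in place of 5838 for the strains in high light and 2082 in place of 4079 for the strains in control light. For light in vip1-1, all-gene calls were 2241 with median centring, 1901 with quantile normalization and 2770 when scaled without the 1000 most abundant genes. In the first and last of these 0 members were higher, against 6.98% and 12.9% of all tested genes. For light in vip1-1, 0 members were lower with a pseudocount of 0.1 or 0.01, no filter, rescaling to TPM, array weights or only its 2 groups fitted. In those fits 2.64% to 4.52% of all tested genes were lower. For light in WT, 0 members were higher with no filter, median centring, quantile normalization, scaling without the 1000 most abundant genes or array weights. All tested genes called higher in these fits came to 23.2% to 54.9%. For the strains in control light, array weights gave 8198 genes, with 6 members higher and 1 lower. Of all tested genes, 13.6% were higher and 51.6% lower in that fit. A fit of only the 2 groups gave 6856 genes, with 7 members higher and 1 lower, against 11.9% and 42.7% of all. Median centring and scaling without the 1000 most abundant genes gave 2 higher members each, against 14.5% and 11.7% of all tested genes. For the strains in high light, a fit of only the 2 groups called 3538 genes. For the interaction, array weights gave 4475 genes in place of 1095, or 35.6% of all tested genes, and 9 members. The causes were not tested.

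Leaving out each library in turn gave 2991 (without vip1-1 control replicate 2) to 6029 (without WT high light replicate 2) genes called for light in vip1-1, 2667 (without WT control replicate 2) to 4844 (without WT high light replicate 2) for the strains in control light and 516 (without WT control replicate 2) to 1932 (without WT high light replicate 2) for the interaction. Members called higher for light in vip1-1 numbered 2 to 3, against 22.3% to 42.9% of all tested genes. Those lower numbered 0 to 1, against 1.45% to 6.48%. For light in WT, 0 to 1 members were higher, against 38.1% to 47.8% of all tested genes. For the strains in control light, 1 to 5 members were higher, against 4.09% to 8.06% of all tested genes. There 0 to 1 were lower, against 16.6% to 30.5%. The interaction was called in 2 to 6 members, against 4.10% to 15.4% of all tested genes. The log2 CRD1 to CTH1 ratio in high light minus control within vip1-1, which was not called, ranged from -0.44 to 0.074.

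The replicate numbers are shared by the groups in the labels, but samples with the same number did not deviate together. The correlation of their deviations lay between -0.49 and 0.48 over 18 pairs, with a median of -0.06 and 4 over 0.1. Over 36 pairs with different numbers it lay between -0.53 and 0.48, with a median of 0.04 and 10 over 0.1. By the mean correlation with the libraries of each number in the other groups, 3 of 12 libraries were highest with their own number. With the replicate block, 4722 genes were called for light in vip1-1, 7112 for light in WT, 5535 for the strains in high light, 3637 for the strains in control light and 744 for the interaction, and the number of members called in each direction was as without it. Depth is unknown, so no counting error could be given for GUN4 and CHLM1, the members with the lowest FPKM.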
